A study of Mus musculus with 54 samples.

Results

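The genes of urate production and transport, 6 of the 19068 genes in the expression table of laser-captured mouse late proximal tubules, are Xdh, Slc2a9, Slc22a12, Abcg2, Slc17a1 and Slc17a3. They were chosen with earlier results of these data in view and found by gene symbol. Each symbol had 1 row, and all 6 were among the 15424 genes tested. The mice were male, of the DBA strain and 14 weeks old. Ins2 Akita/+ mice, which carry a mutant insulin allele and model type 1 diabetes, were compared with nondiabetic Ins2+/+ littermates. Each kind was Sglt1 KO (Sglt1-/-) or Sglt1 WT (Sglt1+/+), Sglt1 being the apical glucose carrier encoded by Slc5a1. For 2 weeks the mice received vehicle or, mixed into the diet at 10 mg per kg, dapagliflozin, which blocks SGLT2. A further group of Akita Sglt1 WT mice was given semaglutide, an agonist of the GLP-1 receptor, under the skin at 3 nmol per kg of body weight per day. The 9 groups were Akita KO with dapagliflozin, Akita KO with vehicle, Akita WT with semaglutide, Akita WT with dapagliflozin, Akita WT with vehicle, nondiabetic KO with dapagliflozin, nondiabetic KO with vehicle, nondiabetic WT with dapagliflozin and nondiabetic WT with vehicle. Each group had 6 libraries, except the Akita WT dapagliflozin and semaglutide groups, which had 5 each. The labels name no tissue-restricted promoter for the knockout or the Akita allele. The labels do not tie libraries to animals, and p-values measure the spread between these samples, part of which may be technical.

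Urate is the end product of purine breakdown in this pathway. Xanthine dehydrogenase, encoded by Xdh, forms it from hypoxanthine by way of xanthine, and in mice uricase, mainly in liver, breaks urate down further. Proximal tubule cells move filtered and circulating urate across their membranes. Slc22a12 (URAT1) takes urate in from the lumen and Slc2a9 (GLUT9) passes it on towards the blood. Abcg2, an ATP-driven pump, and Slc17a1 (NPT1) and Slc17a3 (NPT4), organic anion carriers of the apical membrane, move urate towards the lumen.

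All libraries matched their Sglt1 label by the level of Slc5a1. It averaged 0.776 to 0.828 TPM (a length-corrected measure of transcript level) in the KO groups and 55 to 86.2 TPM in the WT groups. All 10 markers of the late (S3) proximal tubule were detected, and their summed level was 4277 to 12909 TPM per library, against 250.5 to 2433 TPM for 9 markers of the earlier S1 and S2 segments. Slc5a2, which encodes SGLT2, ranged from 3.93 to 205 TPM among libraries, although tubules had been chosen as SGLT2-negative. The share of mitochondrial rRNA ran from 20.3 to 52.3% among libraries, and the TPM of a library summed to 984393 to 2253870. Values in TPM should have the same total in every library, so levels are compared here on unequal totals. The reason for the unequal totals was not given in the sources used here. The number of reads is unknown, so no counting interval is given. The mean log2(TPM + 1) of markers of other kidney cells was highest in nondiabetic WT vehicle replicates 1 and 2, at 4.59 and 4.31. It was 4.07 in nondiabetic KO vehicle replicate 1, with no gap to the next library at 4.02, so that the 3 highest do not form a separate set. The Xdh results are given with and without these 3.

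Of the 5 transporters, 4 were far more abundant than the enzyme, and Slc2a9 was scarcer. Averaged over the 52 libraries, Slc22a12 stood at 679 TPM, above 99.3% of the tested genes. Slc17a3 averaged 235 TPM, Abcg2 231 TPM and Slc17a1 141 TPM. Xdh averaged 20.3 TPM and Slc2a9 8.57 TPM. Slc22a12 was the highest of the 6 in all 52 libraries, and Xdh and Slc2a9 both lay below the other 4 in all 52. Xdh was below Slc2a9 in 9 libraries. Slc17a3 was above Slc17a1 in 51 libraries and above Abcg2 in 30. No library had any of these genes at 0. The scarce genes were also the most variable: the ratio of SD to mean over all libraries was 0.548 for Xdh and 0.501 for Slc2a9, against 0.318 for Slc22a12, 0.242 for Slc17a1, 0.235 for Slc17a3 and 0.228 for Abcg2.

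By annotation (GENCODE vM21, GRCm38), Xdh lies on chromosome 17 at 73883895 to 73950196 on the minus strand, Slc2a9 on chromosome 5 at 38349273 to 38503143 on the minus strand, and Abcg2 on chromosome 6 at 58584523 to 58695676 on the plus strand. Slc17a3, on chromosome 13 at 23839434 to 23860716, and Slc17a1, at 23867750 to 23895730, are plus-strand neighbours 7033 bases apart. Slc22a12, on chromosome 19 at 6535845 to 6543032 on the minus strand, lies inside Nrxn2 on the other strand. Nrxn2 averaged 9.19 TPM, and since the sources used here do not say whether strand was used in counting, reads of the pair may not have been told apart. A processed pseudogene, Gm18068, lies inside Xdh on the same strand, where strand cannot separate reads. Gm18068 averaged 2.41 TPM and was at 0 in 6 libraries.

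The start regions of the 4 abundant transporters are shown because these genes varied together between libraries. Each runs from 250 bases before to 50 bases after an annotated start, the most upstream in the table where a gene has several, and is taken from RefSeq on GRCm38.p6. Capitals mark the 50 bases from the start onwards.
Slc17a3, chr13:23839184-23839483, plus strand: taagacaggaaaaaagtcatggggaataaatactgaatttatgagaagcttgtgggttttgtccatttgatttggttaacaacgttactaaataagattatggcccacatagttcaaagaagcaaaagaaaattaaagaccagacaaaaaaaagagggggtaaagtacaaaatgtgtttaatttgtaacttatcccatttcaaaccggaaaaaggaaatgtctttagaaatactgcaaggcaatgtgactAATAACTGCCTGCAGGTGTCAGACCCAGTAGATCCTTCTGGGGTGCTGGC
Slc17a1, chr13:23868768-23869067, plus strand: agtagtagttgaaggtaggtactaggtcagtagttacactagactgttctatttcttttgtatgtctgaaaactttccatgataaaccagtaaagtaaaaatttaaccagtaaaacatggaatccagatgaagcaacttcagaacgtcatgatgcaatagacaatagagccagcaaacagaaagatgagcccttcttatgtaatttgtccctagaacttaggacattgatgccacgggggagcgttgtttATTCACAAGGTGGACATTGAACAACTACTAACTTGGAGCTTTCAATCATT
Abcg2, chr6:58584283-58584582, plus strand: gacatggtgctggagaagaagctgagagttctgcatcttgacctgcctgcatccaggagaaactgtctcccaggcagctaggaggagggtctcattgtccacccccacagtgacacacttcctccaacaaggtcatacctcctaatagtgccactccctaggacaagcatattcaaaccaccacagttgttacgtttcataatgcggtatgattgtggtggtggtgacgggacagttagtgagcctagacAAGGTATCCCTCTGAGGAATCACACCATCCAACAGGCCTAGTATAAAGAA
Slc22a12, chr19:6543021-6543320, minus strand: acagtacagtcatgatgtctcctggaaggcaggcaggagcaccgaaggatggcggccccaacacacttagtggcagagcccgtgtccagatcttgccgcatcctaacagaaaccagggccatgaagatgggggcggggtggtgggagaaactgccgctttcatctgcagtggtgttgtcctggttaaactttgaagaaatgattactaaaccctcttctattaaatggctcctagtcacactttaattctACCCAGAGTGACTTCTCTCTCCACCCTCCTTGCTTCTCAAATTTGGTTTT
The windows were searched on both strands for GTTAAT (an HNF1 half-site, found in 7.13% of 32544 mouse promoter windows of the same length). They were also searched for CAAAGTCCA (an HNF4 site, found in 0.479% of windows). Another search was for TATAAA, the core of a promoter box found in 13.6% of windows. The last was for GGGCGG, which the factor Sp1 binds and which 35.9% of windows hold. No match overlapped another motif's match. The Abcg2 window shown held 1 match of TATAAA, at base 42 after the start and so downstream of where that box lies, the Slc22a12 window held 1 match of GGGCGG, and the Slc17a3 and Slc17a1 windows shown held no match of the 4. The table has 2 further Abcg2 windows, at start bases 58596422 and 58640296, with 2 and 4 matches of GGGCGG, and the window at 58596422 also has 1 of TATAAA. The window at 58640296 is 67.0% GC with 28 CpG. GC content was 36.7% in the Slc17a3 window and 37.7% in the Slc17a1 window. A match is a string of letters and not a bound site.

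**Figure D1:**
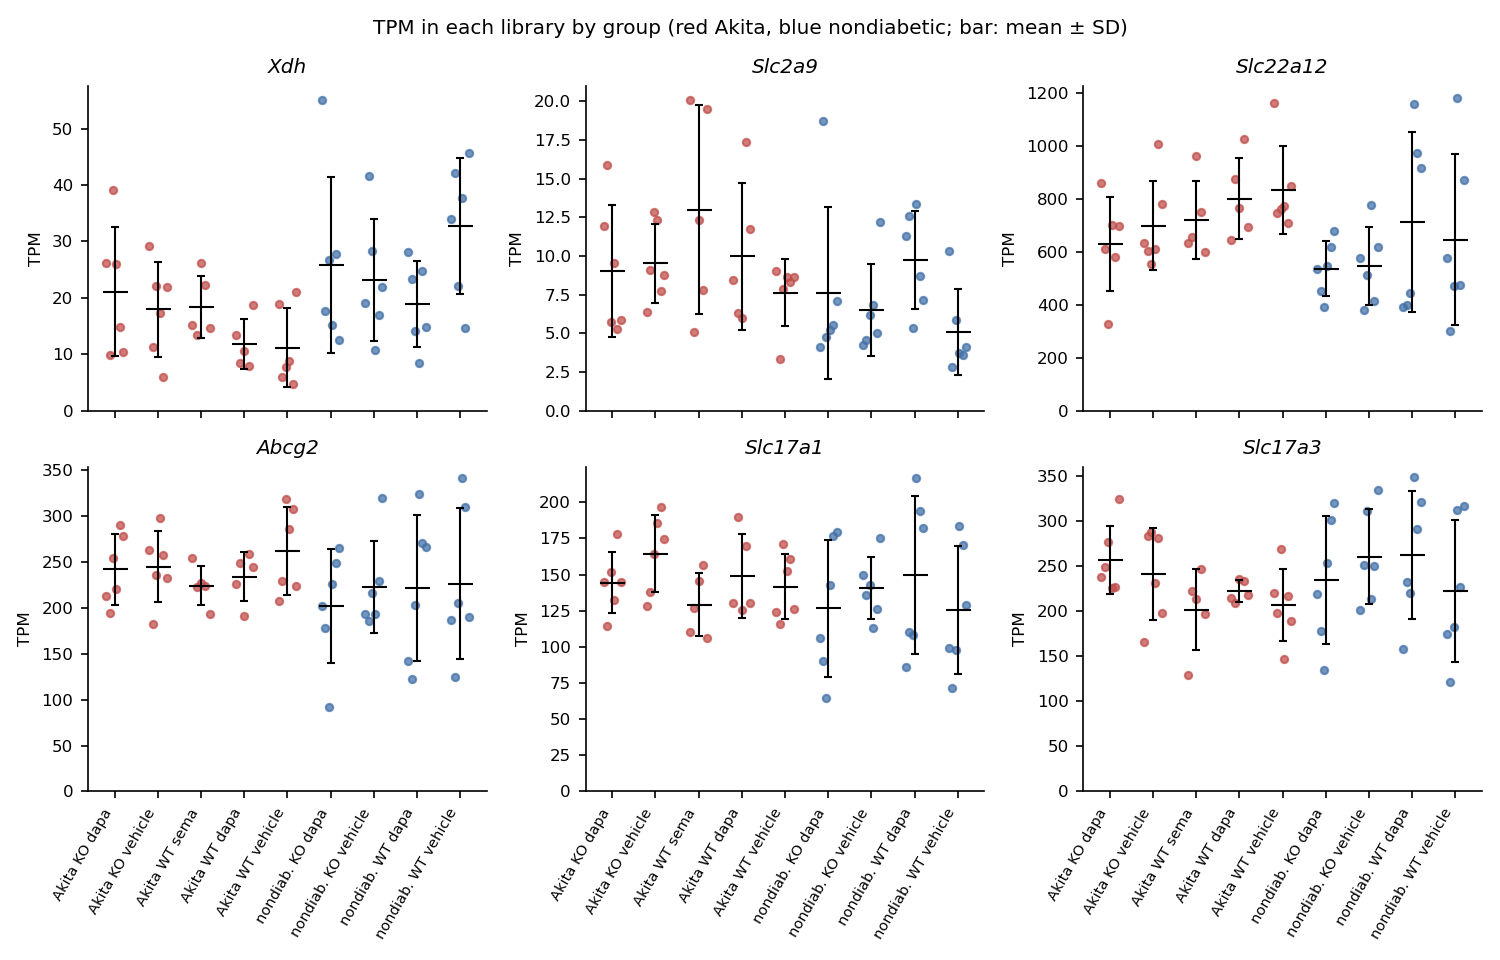
TPM of the 6 genes (y axis, from 0) in the 52 libraries by group (x axis). Points are libraries, red for Akita and blue for nondiabetic mice, and bars give the mean and SD. Xdh averaged 11.2 TPM in the Akita WT vehicle group and 32.7 TPM in the nondiabetic WT vehicle group.

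A urate gene passed the test for diabetes only, in the WT vehicle pair and in the averaged comparison. These calls held in 7 and 3 of 13 other settings of the fit, given below. Xdh fell in Akita WT vehicle mice, to 0.340 times the level in nondiabetic WT vehicle mice on the log2(TPM + 1) scale, and no other gene of the 6 passed the test in this or any other comparison. Xdh ranged from 4.74 to 21.0 TPM with a median of 8.29 TPM in the Akita WT vehicle libraries, against 14.6 to 45.6 TPM with a median of 35.8 TPM in the nondiabetic WT vehicle libraries. All 6 Akita libraries lay below the nondiabetic median, and the groups overlapped. The means were 11.2 ± 6.94 TPM in Akita and 32.7 ± 12 TPM in nondiabetic WT vehicle mice (SD, n = 6 each). These were the lowest and the highest Xdh means of the 9 groups. The log2 change was -1.56 ± 0.37 (SE; 95% interval -2.30 to -0.82), with an adjusted p of 0.0325 (limma on log2(TPM + 1), Benjamini-Hochberg over the 15424 tested genes). In this comparison 60 genes, 0.389% of those tested, were called at an adjusted p under 0.05. Of these, 52 were higher and 8 lower in Akita. The 6 urate genes were chosen with earlier results of these data in view. So 1 of 6 is no rate to set against that share. Gm18068, the pseudogene inside Xdh, averaged 1.69 TPM in Akita and 3.71 TPM in nondiabetic WT vehicle mice (-0.66 ± 0.45; limma adjusted p = 0.644), and its part in the Xdh level was not tested. In bulk tissue, fewer cells of a type and less RNA per cell cannot be told apart.

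Markers of endothelium, and of macrophages and dendritic cells, mostly had changes below 0 in the same comparison. Xdh is also known from capillary endothelium. Of 15 endothelial markers, 14 had a log2 change below 0 in Akita WT vehicle mice (median -0.32, against 0.05 for all tested genes). Vwf, the clotting factor carrier stored in endothelial cells, passed the test (log2 change -1.53 ± 0.32, limma adjusted p = 0.00844). The summed level of the 15 markers was 261 to 406 TPM in Akita and 299 to 578 TPM in nondiabetic WT vehicle libraries, and none was at 0 in any of them. Macrophage and dendritic cell markers, 12 of 13 measured, summed to 365 to 484 TPM in Akita and 448 to 771 TPM in nondiabetic WT vehicle libraries, with a median log2 change of -0.52 over the 11 tested and none called. Markers of stroma, pericytes and muscle, 10 of 11 measured, summed to 99.9 to 201 TPM in Akita and 86.8 to 601 TPM in nondiabetic WT vehicle libraries. The 14 markers of the loop, distal tubule and collecting duct summed to 1117 to 1763 TPM and 1055 to 3476 TPM in these groups. For 5 podocyte markers the sums were 13.1 to 35.7 TPM and 15.0 to 96.6 TPM. The score of the other cell types is taken over all of these lists except the endothelial one.

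With the endothelial score as a covariate the change of Xdh was -1.43 (limma adjusted p = 0.176), and with the score of the other cell types it was -1.36 (limma adjusted p = 0.121). Without the 3 libraries richest in other cells it was -1.41 (limma adjusted p = 0.198). Over all 13 other settings the change lay between -1.79 and -1.36 and the limma adjusted p between 0.0229 and 0.198. The summed TPM of a library was 1596044 to 2250917 in Akita and 984393 to 1954588 in nondiabetic WT vehicle mice, and with it as a covariate, a setting chosen after seeing the data, the change was -1.50 (limma adjusted p = 0.14). Leaving out single libraries gave changes of -1.77 to -1.38 and ended the call in 8 of 12 cases: Akita WT vehicle replicates 2, 3, 4 and 5 (-1.44, -1.50, -1.53 and -1.38) and nondiabetic WT vehicle replicates 1, 2, 4 and 6 (-1.53, -1.47, -1.50 and -1.45). Over the 52 libraries Xdh correlated with the endothelial score at r = 0.37 and with the score of other cells at r = 0.40, or 0.13 and 0.29 after each group's mean was subtracted. The points share their scaling, and the part of other cells in the Xdh result beyond these fits was not tested.

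**Figure D2:**
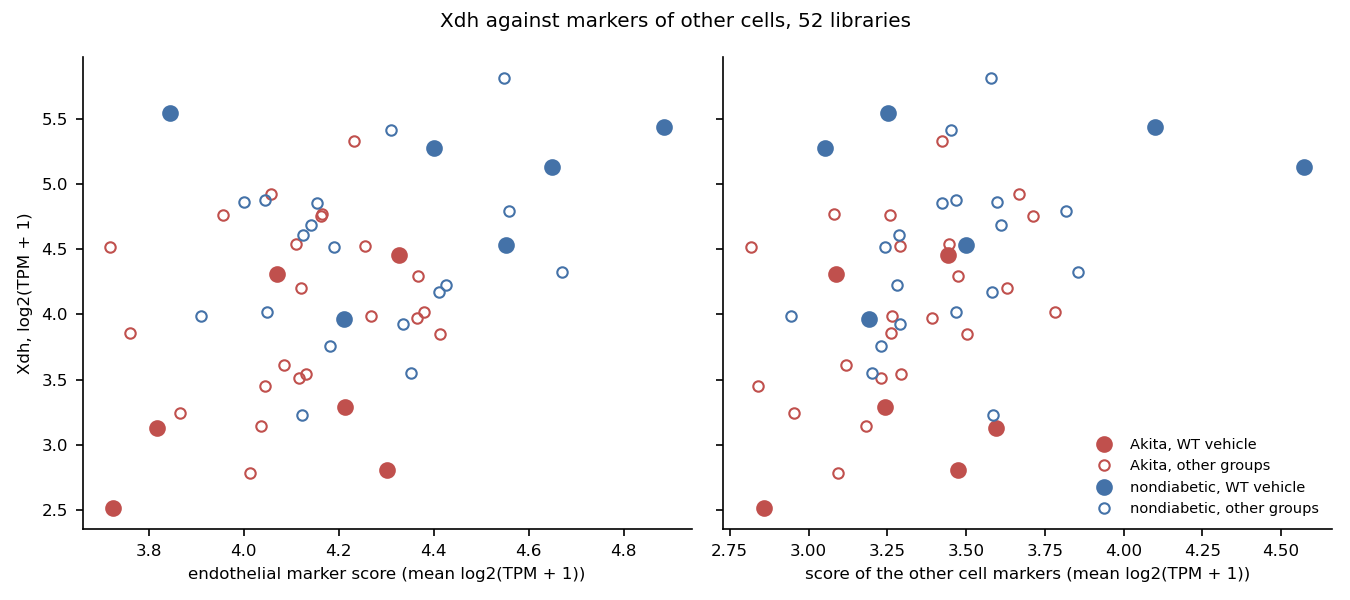
Xdh as log2(TPM + 1) (y axis) against the mean log2(TPM + 1) of 15 endothelial markers (left) and of the markers of other cell types (right) in 52 libraries, red for Akita and blue for nondiabetic mice, filled for the WT vehicle groups. The Akita WT vehicle libraries, at 4.74 to 21.0 TPM of Xdh, lie at endothelial scores of 3.72 to 4.33. The nondiabetic WT vehicle libraries, at 14.6 to 45.6 TPM, lie at scores of 3.84 to 4.88.

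The other 3 matched settings gave smaller differences for Xdh, none past the test. Xdh averaged 18.0 ± 8.38 TPM in Akita KO vehicle and 23.1 ± 10.8 TPM in nondiabetic KO vehicle mice (log2 change -0.38 ± 0.37; limma adjusted p = 0.86). Under dapagliflozin it averaged 11.8 ± 4.41 TPM in Akita WT (n = 5) and 19.0 ± 7.59 TPM in nondiabetic WT mice (-0.60 ± 0.39; limma adjusted p = 1.00), and 21.1 ± 11.4 TPM in Akita KO and 25.9 ± 15.6 TPM in nondiabetic KO mice (-0.28 ± 0.37; limma adjusted p = 0.996). All 5 Akita WT dapagliflozin libraries lay below the nondiabetic median, as against 3 of 6 in each pair of KO groups. The share of tested genes called was 0% with KO vehicle, 0.00648% with WT dapagliflozin and 0% with KO dapagliflozin, where 1026, 533 and 790 genes had an unadjusted p under 0.05.

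Averaged over the 4 settings, Xdh fell by 0.70 ± 0.19 on the log2 scale (limma adjusted p = 0.0487; 149 genes called, 0.966%). The average includes the WT vehicle pair, which had the largest change, and so is not independent of the call there. Xdh averaged 15.7 ± 8.85 TPM in 23 Akita libraries and 25.2 ± 12.2 TPM in 24 nondiabetic libraries, and 19 of the 23 lay below the nondiabetic median. The averaged call ended in 10 of 13 other settings and in 33 of 47 cases with a single library left out, where the change was -0.76 to -0.64 and the limma adjusted p 0.0237 to 0.0883. With the endothelial score as a covariate it was -0.62 (limma adjusted p = 0.301). All 15 endothelial markers were below 0 in the averaged comparison, none called, with a median of -0.20.

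The difference in the Xdh change between genotypes was tested directly. The Akita change was higher by 1.18 ± 0.52 in KO than in WT vehicle mice (95% interval 0.13 to 2.23; unadjusted p = 0.029, limma adjusted p = 0.999), and no gene was called in that test (0%; 618 genes at an unadjusted p under 0.05). The same difference averaged over both treatments was 0.75 ± 0.37 (limma adjusted p = 1.00). The Akita change under dapagliflozin less that under vehicle, in WT mice, was 0.96 ± 0.54 (limma adjusted p = 0.999). None of these differences passed the test, and their intervals are wide.

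Among the genes of uptake from the lumen and exit to the blood, Slc22a12 and Slc2a9 stood higher in Akita tubules in most libraries but did not pass the test. Slc22a12, the apical urate and anion exchanger, ranged from 711 to 1164 TPM with a median of 768 TPM in Akita WT vehicle libraries, against 302 to 1184 TPM with a median of 528 TPM in nondiabetic WT vehicle libraries. All 6 Akita libraries were above the nondiabetic median, but the nondiabetic group also held the highest library. The log2 change was 0.49 ± 0.25 (limma adjusted p = 0.51). Slc22a12 correlated with the summed TPM of a library at r = 0.44 over 52 libraries, or 0.34 after each group's mean was subtracted. The summed TPM averaged 1857901 in Akita and 1422237 in nondiabetic WT vehicle libraries. Beyond the fits in other settings, the part of these totals in the change was not tested. Averaged over the 4 settings, Slc22a12 stood at 739 TPM in Akita and 612 TPM in nondiabetic libraries, a change of 0.33 ± 0.13 (limma adjusted p = 0.224), and 22 of 23 Akita libraries lay above the nondiabetic median.

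Slc2a9, the exit carrier, ranged from 3.32 to 9.02 TPM with a median of 8.46 TPM in Akita WT vehicle libraries, against 2.81 to 10.3 TPM with a median of 3.92 TPM in nondiabetic WT vehicle libraries (log2 change 0.56 ± 0.32; limma adjusted p = 0.572). The averaged change was 0.34 ± 0.16 (limma adjusted p = 0.337), with 20 of 23 Akita libraries above the nondiabetic median. Above the median of the matched nondiabetic group lay 5 of 6 WT vehicle and 6 of 6 KO vehicle Akita libraries. Under dapagliflozin the counts were 2 of 5 in WT and 5 of 6 in KO mice. In the pair of groups with KO and vehicle, Slc2a9 averaged 9.54 ± 2.56 TPM in Akita and 6.51 ± 2.96 TPM in nondiabetic mice, while under dapagliflozin the WT groups stood at 9.97 ± 4.74 TPM in Akita (n = 5) and 9.75 ± 3.18 TPM in nondiabetic mice.

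The genes of secretion to the lumen did not pass the test for diabetes. Abcg2 averaged 262 ± 47.8 TPM in Akita and 226 ± 82.1 TPM in nondiabetic WT vehicle mice (log2 change 0.27 ± 0.21; limma adjusted p = 0.707). Its averaged change was 0.22 ± 0.11 (limma adjusted p = 0.351), and its lowest library, at 92.0 TPM, was a nondiabetic KO dapagliflozin one. Slc17a1 averaged 142 ± 22.7 TPM in Akita and 125 ± 44.1 TPM in nondiabetic WT vehicle mice (0.23 ± 0.21; limma adjusted p = 0.758). Slc17a3 averaged 207 ± 40.1 TPM in Akita and 222 ± 79.0 TPM in nondiabetic WT vehicle mice (-0.05 ± 0.20; limma adjusted p = 0.959). The intervals of the averaged changes, 0.01 to 0.44 for Abcg2, -0.02 to 0.41 for Slc17a1 and -0.25 to 0.16 for Slc17a3, hold no change of 1 log2 unit in either direction. Over all 6 genes the median change was 0.25 in WT vehicle mice and 0.21 averaged over the settings, against 0.05 and 0.03 over all tested genes.

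**Figure D3:**
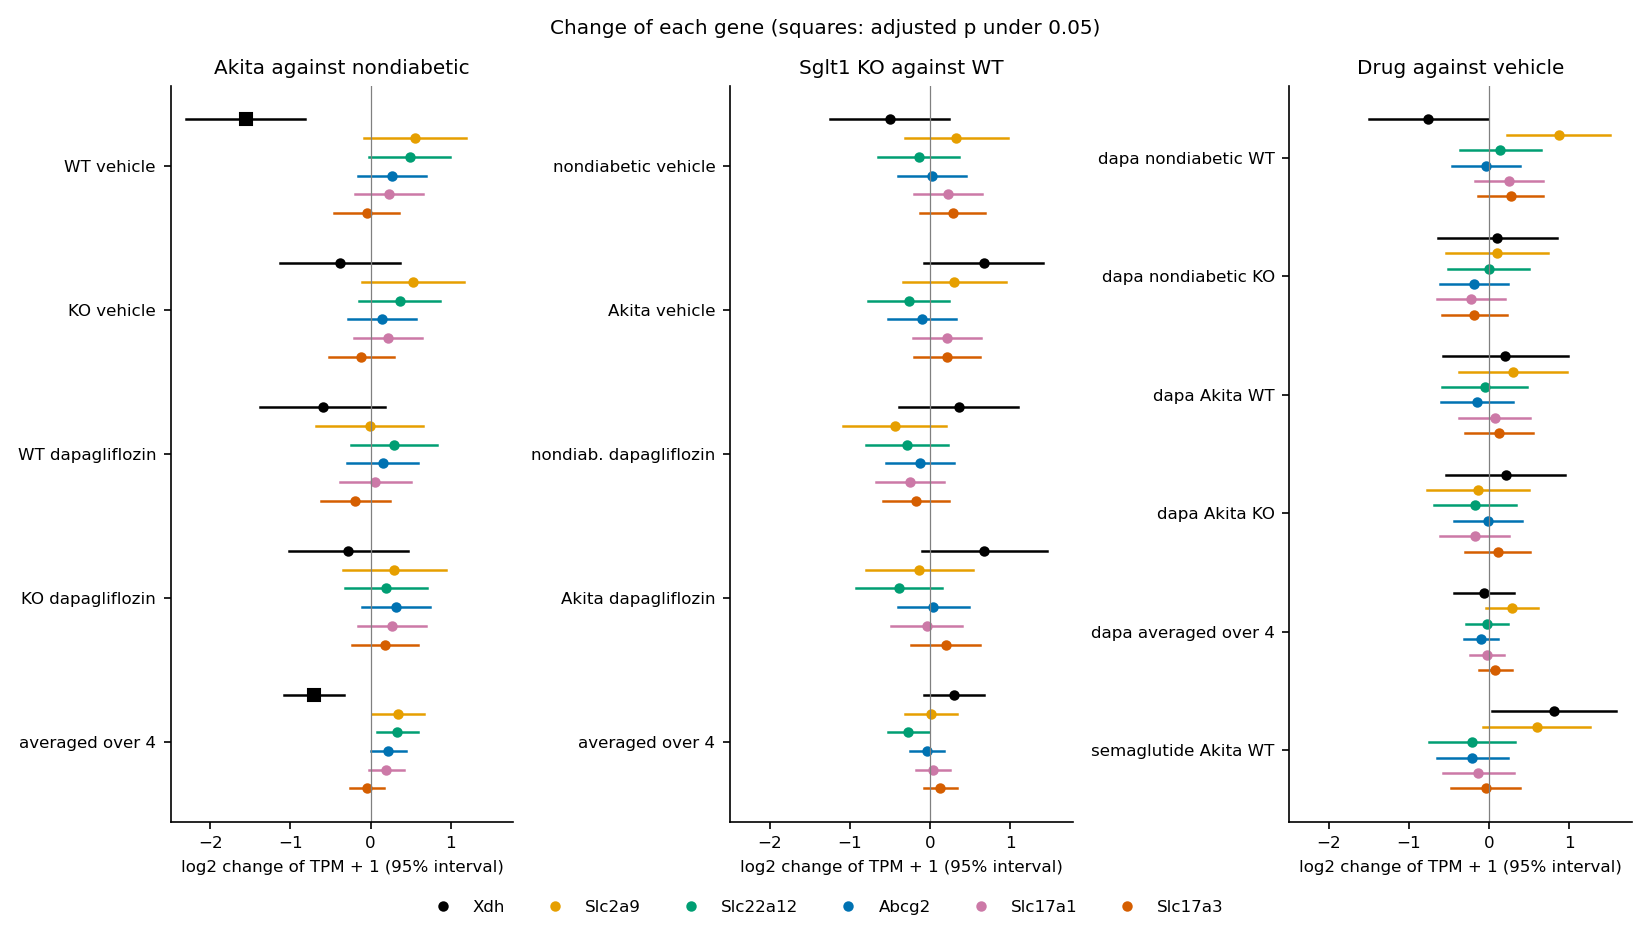
Log2 change of TPM + 1 (x axis) with its 95% interval for the 6 genes, for Akita against nondiabetic (left), Sglt1 KO against WT (middle) and drug against vehicle (right). Squares mark an adjusted p under 0.05, which Xdh alone reached, at -1.56 with WT and vehicle and -0.70 in the average.

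None of the 6 genes passed the test for knockout of Sglt1. The share of all tested genes called was 0.0195% in nondiabetic vehicle, 0.0259% in Akita vehicle, 0.0324% in nondiabetic dapagliflozin and 0.0195% in Akita dapagliflozin mice, and 0.0519% in the average over these settings. Slc22a12 had the lowest averaged change, -0.27 ± 0.13 (unadjusted p = 0.0408, limma adjusted p = 0.673), with 604 TPM in KO and 747 TPM in WT libraries, and 20 of 24 KO libraries lay below the WT median. Its change was below 0 in each of the 4 settings, at -0.14, -0.27, -0.29 and -0.38. Scaling without mitochondrial genes put nondiabetic dapagliflozin mice at 0.042, where it also put the median of all genes at 0.26, so Slc22a12 was lower than that median by either scaling (-0.22 relative to it, and -0.26 as deposited). Xdh averaged 22.0 TPM in KO and 19.0 TPM in WT libraries (0.30 ± 0.19; limma adjusted p = 0.771). Its change was -0.50 ± 0.37 in nondiabetic vehicle and 0.67 ± 0.37 in Akita vehicle mice. Under dapagliflozin the Xdh change was 0.36 ± 0.37 in nondiabetic and 0.68 ± 0.39 in Akita mice. Slc2a9, which lies 5.19 Mb from Slc5a1 on chromosome 5, averaged 8.17 TPM in KO and 8.03 TPM in WT libraries (0.02 ± 0.16; limma adjusted p = 0.997). The Slc2a9 change was 0.33 in nondiabetic and 0.31 in Akita mice under vehicle, and -0.44 and -0.13 under dapagliflozin. The difference between treatments was -0.60 ± 0.32 for Slc2a9 (limma adjusted p = 0.999). Abcg2, Slc17a1 and Slc17a3 had averaged changes of -0.04, 0.04 and 0.13. For Slc17a1 the changes were 0.22 and 0.21 under vehicle, and -0.25 and -0.04 under dapagliflozin, in nondiabetic and Akita mice.

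None of the 6 genes passed the test for dapagliflozin. The share of all genes called was 0.00648% in nondiabetic WT mice, 0% in nondiabetic KO, Akita WT and Akita KO mice (731, 368 and 483 genes at an unadjusted p under 0.05), and 0% in the average (631 genes). In nondiabetic WT mice the differences of Slc2a9 and Xdh were the most sizeable. Slc2a9 ranged from 5.33 to 13.4 TPM (median 10.0) with dapagliflozin, against 2.81 to 10.3 TPM (median 3.92) with vehicle. All 6 dapagliflozin libraries lay above the vehicle median and the groups overlapped, and the log2 change was 0.87 ± 0.32 (unadjusted p = 0.009, limma adjusted p = 0.586). Xdh averaged 19.0 ± 7.59 TPM with dapagliflozin and 32.7 ± 12 TPM with vehicle in these mice (-0.76 ± 0.37; limma adjusted p = 0.699). In Akita WT mice Xdh averaged 11.8 TPM with dapagliflozin (n = 5) and 11.2 TPM with vehicle (0.20 ± 0.39; limma adjusted p = 1.00). For Slc2a9 the change with dapagliflozin was 0.09 in nondiabetic KO, 0.30 in Akita WT and -0.14 in Akita KO mice. The averaged change of Slc2a9 was 0.28 ± 0.16 (limma adjusted p = 0.999). The dapagliflozin comparisons in WT mice and the diabetes comparison share vehicle libraries, so they are not independent of each other. Nondiabetic WT vehicle mice had the highest Xdh mean and the lowest Slc2a9 mean of the 9 groups.

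With semaglutide, given to Akita WT mice only, no gene of the 6 or of the whole table passed limma's test (0%; 800 genes at an unadjusted p under 0.05). Xdh ranged from 13.5 to 26.2 TPM with a median of 15.2 TPM in semaglutide mice, against 4.74 to 21.0 TPM with a median of 8.29 TPM in vehicle mice. All 5 semaglutide libraries lay above the vehicle median. The log2 change was 0.81 ± 0.39 (unadjusted p = 0.0422, limma adjusted p = 0.942), and endothelial markers summed to 334 to 457 TPM with semaglutide and 261 to 406 TPM with vehicle. Slc2a9 averaged 13 ± 6.75 TPM with semaglutide and 7.63 ± 2.15 TPM with vehicle (0.59 ± 0.33; limma adjusted p = 0.977), and its semaglutide libraries ran from 5.11 to 20.1 TPM. The abundant transporters had changes of -0.21 (Slc22a12), -0.21 (Abcg2), -0.13 (Slc17a1) and -0.04 (Slc17a3). Semaglutide set against dapagliflozin in Akita WT mice gave 0.61 ± 0.41 for Xdh (limma adjusted p = 1.00) and again called no gene (0%; 543 genes at an unadjusted p under 0.05).

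With SGLT1 absent and SGLT2 inhibited together in Akita mice, Xdh averaged 21.1 ± 11.4 TPM, against 11.2 ± 6.94 TPM in Akita WT vehicle mice (0.88 ± 0.37; unadjusted p = 0.0215, limma adjusted p = 0.943; 0.0324% of genes called). All 6 libraries lay above the WT vehicle median. This comparison, that of semaglutide with vehicle and the test between genotypes under vehicle all use the Akita WT vehicle libraries. That group had the lowest Xdh mean of the 9, so these results are not independent of each other. In nondiabetic mice the same setting gave 25.9 ± 15.6 TPM, against 32.7 ± 12 TPM with WT and vehicle (-0.40 ± 0.37; limma adjusted p = 0.989; 0.0195% called). The remaining tests of differences between changes called none of the 6 genes either, and 0 or 1 gene of all those tested, at most 0.00648%. Over the 24 comparisons, 142 of the 144 changes of the 6 genes did not pass. Of these, 9 (6.34%) had an unadjusted p under 0.05, near the 5.23% over all tested genes and comparisons. In the order of the 9 group means, no neighbouring groups of any of the 6 genes lay further apart than the larger of their SDs. Sorting brings close means together, so this says nothing of groups further apart in the order, such as Xdh at 11.2 and 32.7 TPM.

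The 4 abundant transporters varied together between libraries, while Xdh and Slc2a9 did not join them. Over 52 libraries Slc17a1 correlated with Abcg2 at r = 0.83 (Spearman 0.79) and with its chromosome 13 neighbour Slc17a3 at r = 0.69 (Spearman 0.61). Slc22a12 correlated with Slc17a1 at 0.58, with Abcg2 at 0.54 and with Slc17a3 at 0.36. After each group's mean was subtracted these values were 0.85, 0.74, 0.61, 0.51 and 0.54, and did not fall except for Slc22a12 with Abcg2. Xdh was negatively correlated with the other 5, from -0.38 with Slc22a12 to -0.09 with Slc17a3. After group means were subtracted, Xdh stood at -0.19 with Slc22a12, -0.18 with Slc17a3, -0.06 with Slc2a9, -0.25 with Slc17a1 and -0.29 with Abcg2. Slc2a9 lay between -0.05 and 0.22 with the 4 abundant transporters. All points share the library's scaling and its makeup of cells: against the endothelial score, Slc17a1 stood at -0.54, Slc22a12 at -0.45, Slc17a3 at -0.41 and Abcg2 at -0.38. These are descriptions of 52 libraries and no test was made of them.

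**Figure D4:**
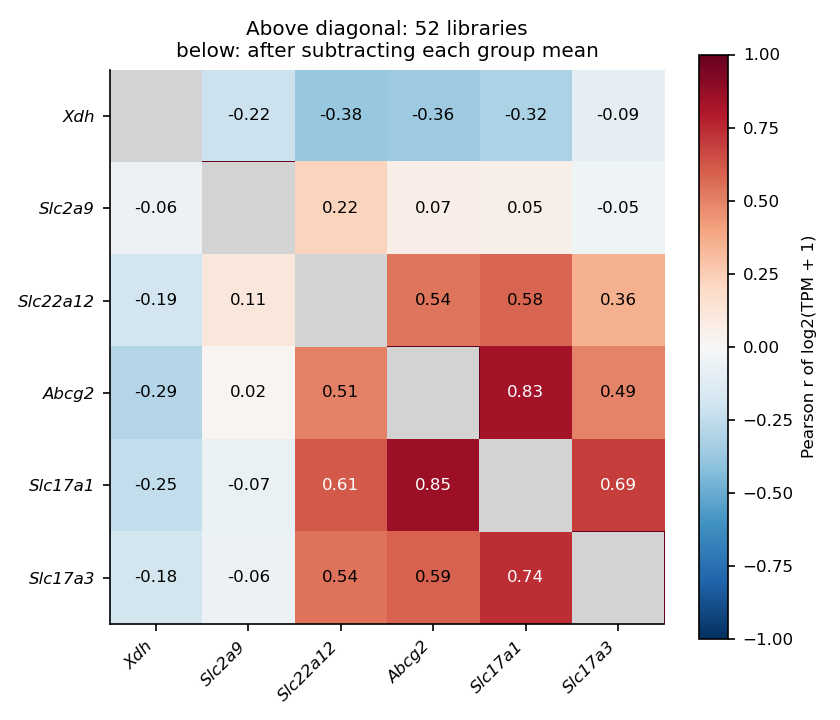
Pearson r of log2(TPM + 1) between the 6 genes over 52 libraries (above the diagonal) and after subtracting each group's mean (below). Slc17a1 and Abcg2 stand at 0.83 and 0.85, and Xdh is below 0 with every other gene.

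Among 10100 genes averaging 5 TPM or more, those most like each urate gene over the 52 libraries differed in how closely they followed it. Abcg2 went with Ugt3a2 (r = 0.90), a glycosyltransferase, Gfm1 (0.89), a mitochondrial translation factor, and Aldh6a1 (0.86), an enzyme of valine breakdown. Slc17a1 went with Hspd1 (0.86), the mitochondrial chaperonin, Ugt3a2 (0.85) and Itfg1 (0.85). Slc22a12 went with Pth1r (0.86), the parathyroid hormone receptor, Proc (0.82), which encodes protein C, and Bckdha (0.79), of branched-chain amino acid breakdown. Slc17a3 went with Myo5a (0.81), Kif20b (0.79) and Gclc (0.78), the catalytic subunit of glutamate-cysteine ligase. The closest genes to Xdh were H2-Q4 (0.55) and Tap2 (0.53), of class I antigen presentation, and Nrbp2 (0.51). Those closest to Slc2a9 were Wdr91, Ap3s2 and Clpx, each at 0.48, so no gene searched correlated with either scarce gene above 0.55.

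The surrounding pathways gave no called gene. Of 68 other listed genes of urate transport, its scaffold and regulators, purine breakdown, purine salvage and synthesis, and the molybdenum cofactor that xanthine dehydrogenase needs, 61 were in the table and 51 were tested; 0 passed limma's test in any of the 24 comparisons. Uox and Ampd1 were among those not analysed here. In the averaged Akita comparison 12 of the 51 (23.5%) had an unadjusted p under 0.05, against 13.4% of all tested genes. The nearest to the threshold were of the molybdenum group: Mtarc2, a molybdenum reductase of mitochondria, stood at 0.35 ± 0.09 (limma adjusted p = 0.0532), and Mocs1, which starts cofactor synthesis, at 0.30 ± 0.08 (limma adjusted p = 0.0658). Of 8 tested genes of that list 7 were above 0 (median 0.20, against 0.03 over all genes), whereas the molybdenum enzyme gene Xdh was lower.

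Of 9 tested genes of other urate transport, 6 were above 0 in the averaged comparison (median 0.23). Abcc2, an apical efflux pump, stood at 0.41 ± 0.18 (limma adjusted p = 0.283), Slc5a8, a monocarboxylate carrier that loads the cell with the anions exchanged for urate, at 0.35 ± 0.14 (limma adjusted p = 0.232) and Slc16a9 at 0.30 ± 0.12 (limma adjusted p = 0.25). In purine breakdown 4 of 9 were above 0 (median -0.05), and Ampd3, an AMP deaminase, stood at -0.67 ± 0.25 (limma adjusted p = 0.209). In purine salvage and synthesis 11 of 16 were above 0 (median 0.11), with Adk, adenosine kinase, at 0.31 ± 0.09 (limma adjusted p = 0.107) and Impdh2, of guanine nucleotide synthesis, at 0.31 ± 0.10 (limma adjusted p = 0.129). Among scaffold and regulators 6 of 9 were above 0 (median 0.07), with Pdzk1, the scaffold that binds apical urate carriers, at 0.14 ± 0.09 (limma adjusted p = 0.524) and Hnf4a at 0.14 ± 0.08 (limma adjusted p = 0.434).

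**Figure D5:**
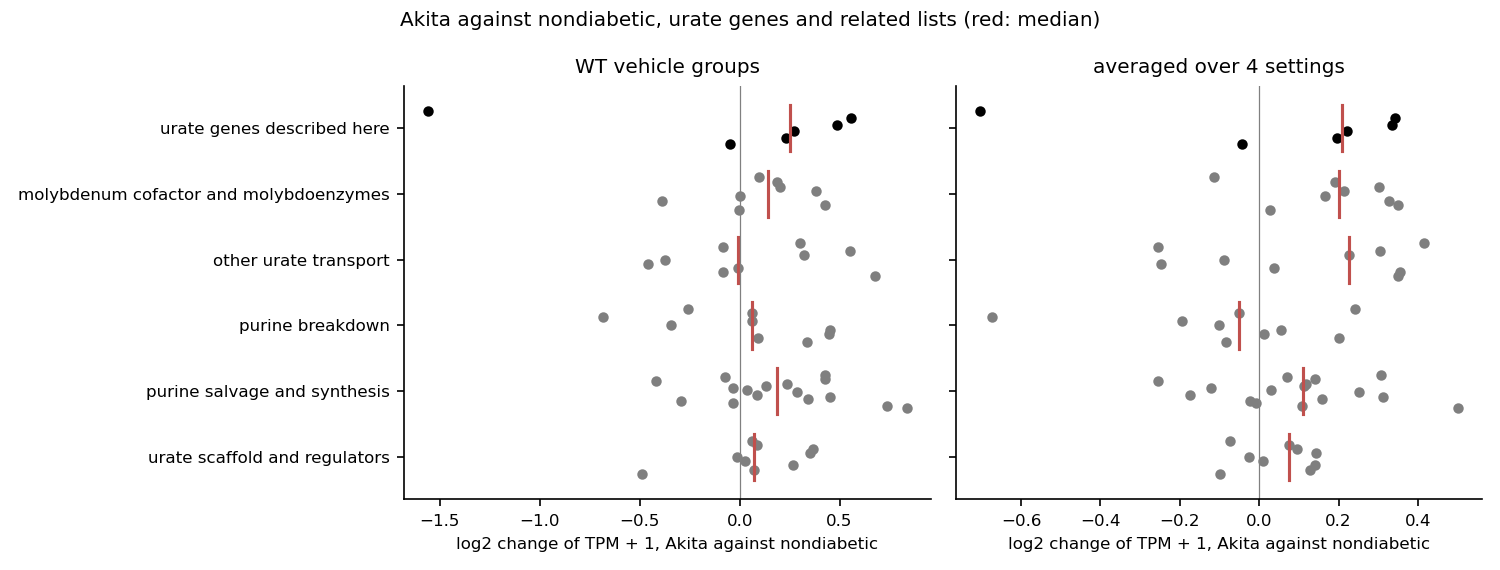
Log2 change of TPM + 1 (x axis), Akita against nondiabetic, of the 6 urate genes (black) and of related gene lists (grey), for WT vehicle groups (left) and averaged over 4 settings (right), with list medians in red. Xdh, at -1.56 and -0.70, lies apart from every other gene drawn in the WT vehicle panel, while Ampd3 lies near it at -0.67 in the averaged panel.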

How the data were processed

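Expression came as log10 TPM in the deposited table, made by the authors on GRCm38 per the submitters' processing notes. Not given in the sources used here were the aligner, the annotation, the strand setting and the read numbers. The title of the table mentions removed outliers, and it has 52 columns for the 54 labelled samples. Akita WT dapagliflozin replicate 2 and Akita WT semaglutide replicate 1 have none. Per the labels' protocols, 70 to 80 SGLT2-negative, LTL-positive tubules per sample were laser captured, and libraries were made from 0.5 ng of RNA (DV200 above 30%) with a stranded total RNA kit.

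Values were turned back to TPM (blank cells, 69605 of them, as 0). Genes averaging 1 TPM or more (15424 of 19068) were tested as log2(TPM + 1), computed here from the deposited values, in limma 3.58.1 (R 4.3.3; data.table, version 1.17.8; eBayes with trend and robust settings) with 9 group means and 24 comparisons. A fold on this scale understates the change of low genes. The threshold was 0.05 for Benjamini-Hochberg p-values adjusted across every gene tested. The fit was tested on simulated data. The cell scores are means of log2(TPM + 1) over marker lists.

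The 6 genes and the lists were chosen with earlier results of these data known. All 6 are named, with 3 most alike genes by r, and Slc5a1 and Slc5a2. Of each related list, up to 3 genes were to be named by p in the Akita WT vehicle comparison. That rule was not fully followed, and the values given are those of the averaged comparison. Slc9a3r2, Nt5c2, Nt5e, Adss, Prps1, Slc22a13 and Mocs2 come under the rule but were left out. Abcc2 and Impdh2 were named outside it. Pandas 2.3.3, numpy 2.4.6 and matplotlib 3.10.9 were used for the rest. Replicates were numbered in label order.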

Additional observations from a re-analysis of the deposited data

Results flagged for a closer look

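In 54 sets of libraries, each of the 6 genes in each of 9 groups, 3 libraries lay apart from the rest of their group by Dixon's test; chance flags about 1 in 20 such sets, which is near what was seen. Slc2a9 stood at 3.32 TPM in Akita WT vehicle replicate 2, below the other 5 libraries. Slc2a9 stood at 18.8 TPM in nondiabetic KO dapagliflozin replicate 2, above the other 5. Slc22a12 stood at 1164 TPM in Akita WT vehicle replicate 1, above the other 5. None of the 3 belongs to a comparison in which that gene was called.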

How the results depend on the processing

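The fall of Xdh in Akita WT vehicle mice (log2 change -1.56, 1 of the 6 genes called) kept its direction in every setting and its call in 7 of 13. The number called fell to 0, and Xdh stood at -1.50 with array weights (limma adjusted p = 0.078), -1.56 with the compared groups alone (0.15), -1.43 with the endothelial score (0.176), -1.36 with the score of other cells (0.121), -1.41 without the 3 libraries richest in other cells (0.198) and -1.50 with the sum of TPM, added after seeing the data (0.14). Averaged over settings (-0.70), the number also fell to 0 with no filter (-0.70; 0.055), scaling without mitochondrial genes (-0.76; 0.0682), array weights (-0.67; 0.0569), compared groups alone (-0.70; 0.0653), the endothelial score (-0.62; 0.301), the score of other cells (-0.57; 0.277), mitochondrial rRNA (-0.72; 0.0542), without the 3 libraries (-0.67; 0.137), limma without trend and robust settings (-0.70; 0.0571) and the sum of TPM (-0.69; 0.0941). With single libraries left out, the number called was 0 to 1 in both comparisons, and Xdh ranged from -1.77 to -1.38 in WT vehicle mice and from -0.76 to -0.64 in the average. The cause of these losses was not tested. In WT vehicle mice the SE of the Xdh change was 0.358 with the compared groups alone and 0.370 in the main fit. No paired analysis was possible because the labels number every library separately.

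None of the 142 uncalled changes was called in any setting (lowest limma adjusted p 0.108). Changes smaller than their SE were not read for sign; larger ones turned sign in 11 cases, all of Slc17a1, Slc17a3 or Slc22a12. Scaling without mitochondrial genes, which moves all genes alike, gave 5 of the 11, and none of them turned relative to the median of all genes. Slc17a1 in Akita against nondiabetic WT vehicle mice stood at -0.01 with scaling without mitochondrial genes, -0.042 with the endothelial score and -0.01 without the 3 libraries; in Akita against nondiabetic KO vehicle mice it stood at -0.0054 with the endothelial score, and in nondiabetic KO against WT vehicle mice at -0.0404 without the 3 libraries. With scaling without mitochondrial genes, KO against WT in nondiabetic dapagliflozin mice gave 0.042 for Slc22a12 and 0.081 for Slc17a1, and dapagliflozin against vehicle in nondiabetic WT mice gave -0.041 for Slc17a1 and -0.018 for Slc17a3. In that last comparison Slc17a1 was -0.0092 with the endothelial score and -0.001 without the 3 libraries. That scaling put the median of all genes at -0.17 in the Akita WT vehicle comparison, 0.26 in the KO comparison of nondiabetic dapagliflozin mice and -0.22 in the dapagliflozin comparison of nondiabetic WT mice, against 0.05, -0.03 and 0.03 as deposited. Up to 2 related-pathway genes were called under an alternative, in the averaged Akita comparison. Read depth is unknown, so the counting error behind 8.57 TPM, the mean of Slc2a9, is not known.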
